A study of Mus musculus with 6 samples.

Results

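All 44 collagen chain genes of the mouse annotation were followed in the aorta of Apoe-/- mice given erythropoietin, against the aorta of Apoe-/- mice given saline. They were chosen by symbol alone, as every gene named Col followed by a type number, the letter a and a chain number, and all 44 were found among the 47643 genes of the count table. By class they were 11 fibrillar genes, 6 of basement membrane type IV, 9 FACIT genes (fibril-associated collagens with interrupted helices), 3 network-forming genes and 15 others. Every library came from mice that lack apolipoprotein E, a lipid-carrying blood protein, and that develop high plasma cholesterol and atherosclerosis. The EPO group (3 libraries) was treated for 4 weeks with recombinant human erythropoietin, the hormone of red cell production, injected into the peritoneum at a daily dose of 5000 IU per kg. The Vehicle group (3 libraries) had saline injections over the same 4 weeks. The sample was the entire aorta, so the wall, its adventitia and any tissue left attached were measured together. The sources used here state no age for the mice, and no label ties each library to its own animal: p-values measure only the spread between the 6 libraries, which may be technical.

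Collagens are secreted proteins whose chains wind around each other into a stiff triple helix, which requires glycine at regular positions. Fibrillar collagens (types I, III and V in the vessel wall) assemble into the cables that carry load, FACIT collagens decorate the surface of those fibrils, type IV collagen forms the sheet-like scaffold of basement membranes, and type VIII and X chains form short-chain networks. In the aorta, fibrillar collagen is made by adventitial fibroblasts and by smooth muscle cells, and type IV collagen surrounds each smooth muscle cell and underlies the endothelium.

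The gene models show the repeat of the helix in their exons. In the 11 fibrillar genes, between 41.2% (Col1a1) and 55% (Col24a1) of coding exons were exactly 54 bases long, a length that encodes whole glycine-led triplets, and 74.6% to 88.5% had a length that is a multiple of 9 bases. Among the 6 type IV genes the share of 54-base exons lay between 2.1% and 5.7%, although each has 45 to 53 coding exons. Col8a1, Col8a2 and Col10a1 have only 2 coding exons each and none of 54 bases.

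Promoter windows of 8 genes are shown: Col1a2 and Col3a1 as abundant fibrillar genes, Col11a1 and Col10a1 as the genes with the largest fitted rises, and 4 type IV genes that sit in divergent pairs. Each covers 250 bases before to 50 bases after the transcription start, from RefSeq on build GRCm38.p6, which held windows for 35 of the 44 genes. The Col1a2 window lies wholly inside the gene model used for the coordinates (chromosome 6, 4504814 to 4541544), downstream of that model's start. For Col4a5 the starts of these sources also differ. Capitals mark 3 motifs, searched on both strands, with no overlap between them in these windows. The CCAAT box, also read as its reverse ATTGG, was present in 37.4% of all 32851 windows of this length and in 13 of 38 collagen windows (34.2%). The TATA box was searched as TATAAA, whose reverse is TTTATA, and was present in 13.6% of all windows and in 5 of 38 (13.2%). The GC box was searched as GGGCGG, whose reverse is CCGCCC, and was present in 35.7% of all windows and in 23 of 38 (60.5%). A match describes the letters only. The windows of the fibrillar genes Col1a2 (chr6:4505368-4505667, plus strand), Col3a1 (chr1:45311288-45311587, plus strand) and Col11a1 (chr3:114030290-114030589, plus strand), and of the network gene Col10a1 (chr10:34389731-34390030, plus strand), read 5′ to 3′:
Col1a2: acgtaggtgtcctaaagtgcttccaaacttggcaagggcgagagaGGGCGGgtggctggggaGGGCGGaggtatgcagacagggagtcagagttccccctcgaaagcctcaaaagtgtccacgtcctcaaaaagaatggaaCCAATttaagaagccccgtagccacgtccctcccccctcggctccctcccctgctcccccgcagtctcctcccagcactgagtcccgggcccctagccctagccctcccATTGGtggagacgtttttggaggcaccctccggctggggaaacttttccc
Col3a1: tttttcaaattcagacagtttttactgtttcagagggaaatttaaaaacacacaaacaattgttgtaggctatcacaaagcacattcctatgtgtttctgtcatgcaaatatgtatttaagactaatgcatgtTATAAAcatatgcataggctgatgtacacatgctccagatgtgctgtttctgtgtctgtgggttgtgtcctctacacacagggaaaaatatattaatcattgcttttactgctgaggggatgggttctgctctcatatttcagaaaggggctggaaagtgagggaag
Col11a1: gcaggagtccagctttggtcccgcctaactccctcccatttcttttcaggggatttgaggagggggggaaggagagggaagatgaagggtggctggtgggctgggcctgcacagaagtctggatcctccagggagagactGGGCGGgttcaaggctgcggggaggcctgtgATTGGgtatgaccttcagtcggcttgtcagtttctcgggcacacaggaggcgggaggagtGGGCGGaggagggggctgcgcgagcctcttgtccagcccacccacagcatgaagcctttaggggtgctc
Col10a1: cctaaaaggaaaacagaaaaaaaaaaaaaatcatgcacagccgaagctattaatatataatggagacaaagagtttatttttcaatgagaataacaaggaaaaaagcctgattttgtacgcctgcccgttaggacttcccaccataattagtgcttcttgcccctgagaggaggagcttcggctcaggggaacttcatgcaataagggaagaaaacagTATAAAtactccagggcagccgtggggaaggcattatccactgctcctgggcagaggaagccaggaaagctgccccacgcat
The type IV genes lie in head-to-head pairs and are transcribed away from each other. The annotated starts are 21 bases apart for Col4a1 and Col4a2 on chromosome 8, whose exons overlap there by 22 bases without a gap. They are 72 bases apart for Col4a3 and Col4a4 on chromosome 1 and 1309 bases for Col4a5 and Col4a6 on the X chromosome. Windows of Col4a1 (chr8:11312777-11313076, minus strand) and Col4a2 (chr8:11312555-11312854, plus strand) share 78 bases, so the last 78 letters of one are the reverse complement of the last 78 of the other. Those of Col4a5 (chrX:141475169-141475468, plus strand) and Col4a6 (chrX:141474027-141474326, minus strand) do not overlap:
Col4a1: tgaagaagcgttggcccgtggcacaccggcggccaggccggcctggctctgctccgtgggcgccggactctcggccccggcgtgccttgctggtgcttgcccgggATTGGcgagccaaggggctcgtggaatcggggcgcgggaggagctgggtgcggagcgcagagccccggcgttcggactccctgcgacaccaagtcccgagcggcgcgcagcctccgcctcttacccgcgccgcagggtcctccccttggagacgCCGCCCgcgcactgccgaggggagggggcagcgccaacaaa
Col4a2: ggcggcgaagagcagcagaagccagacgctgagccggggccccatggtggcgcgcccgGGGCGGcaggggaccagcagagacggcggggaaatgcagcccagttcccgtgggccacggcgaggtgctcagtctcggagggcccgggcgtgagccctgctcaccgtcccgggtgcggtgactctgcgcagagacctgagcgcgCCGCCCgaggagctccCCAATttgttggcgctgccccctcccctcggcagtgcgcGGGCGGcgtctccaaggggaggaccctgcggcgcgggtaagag
Col4a5: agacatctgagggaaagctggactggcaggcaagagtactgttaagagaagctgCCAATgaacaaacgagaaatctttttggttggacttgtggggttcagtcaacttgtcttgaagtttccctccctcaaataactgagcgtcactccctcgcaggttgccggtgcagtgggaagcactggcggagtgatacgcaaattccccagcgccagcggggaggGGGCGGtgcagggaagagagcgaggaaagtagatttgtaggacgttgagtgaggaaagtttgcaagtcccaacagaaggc
Col4a6: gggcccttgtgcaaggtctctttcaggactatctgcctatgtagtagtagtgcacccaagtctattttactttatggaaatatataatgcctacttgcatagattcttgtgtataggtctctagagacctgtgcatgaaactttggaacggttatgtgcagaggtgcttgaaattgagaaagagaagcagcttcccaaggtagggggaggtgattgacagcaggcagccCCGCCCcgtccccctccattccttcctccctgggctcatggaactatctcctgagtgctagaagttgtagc
Col1a2 held CCAAT in both orientations and GGGCGG at 2 places. Col3a1, which rose with it, held neither and had 1 TATAAA. In the Col10a1 window a TATAAA began 32 bases before the start. Base composition also differed, from 37.7% G and C in Col3a1 to 74% in Col4a1.

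Library totals ran from 23278649 to 38502430 counts. Every EPO library (28798632 counts or more) was deeper than every Vehicle library (27904322 or fewer), so reads counted need scaling before groups are compared. A count of 0 in a library (read as up to 3 counts) allowed a level of up to 0.0779 to 0.129 CPM from counting error alone. CPM are counts scaled to a common library size, here with TMM factors. Markers of other tissues differed between the groups. The summed level of 10 skeletal muscle genes was 8.28 to 17.1 CPM over the Vehicle libraries and 391 to 3085 CPM over the EPO libraries, highest in EPO 2. That of 10 macrophage genes was 1930.3 to 3919 CPM over the Vehicle libraries and 4161 to 9719 CPM over the EPO libraries, highest in EPO 1. Smooth muscle markers summed to 21266 to 30018 CPM over the Vehicle libraries and 7789.6 to 10351 CPM over the EPO libraries. Fibroblast markers summed to 5998 to 7506 CPM over the Vehicle libraries and 5426 to 6046 CPM over the EPO libraries, so the labelled tissue showed its smooth muscle and fibroblast genes in every library. Their part in the collagen results was not tested. In bulk tissue, a change in the number of cells of a type and a change in RNA per cell cannot be told apart.

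Of the 44 collagen genes, 41 had enough counts to be tested, and 20 were higher and 6 lower with EPO at an adjusted p under 0.05 (edgeR quasi-likelihood test, Benjamini-Hochberg over all 16522 genes tested). Across all genes tested, 12.9% were called higher and 10.1% lower. The filter asks for enough counts in 3 libraries, so a gene low in Vehicle could enter only through its EPO levels. That was so for Col9a1, Col9a2, Col10a1 and Col24a1, whose calls as higher are thus not independent of the filter. The other 15 tested members did not pass, and Col17a1, Col25a1 and Col26a1 were too low to be tested, with at most 50 counts in a group. The median log2 fold change was 0.80 over the 41 members and 0.01 over all genes tested. CPM values did not overlap between the groups for 23 of the 41 members in the higher direction and 6 of 41 in the lower, against 22.9% and 21% of all genes tested. In the lower direction the members without overlap were thus a smaller share than over all genes. Those called lower were a share little above that over all genes. In a fit that left out both EPO 1 and EPO 2, where skeletal muscle markers were highest, 22 members were called higher and 1 lower, against 6.14% and 2.62% of all genes. That fit keeps a lone EPO library, which is assumed to vary like the Vehicle libraries.

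**Figure D1:**
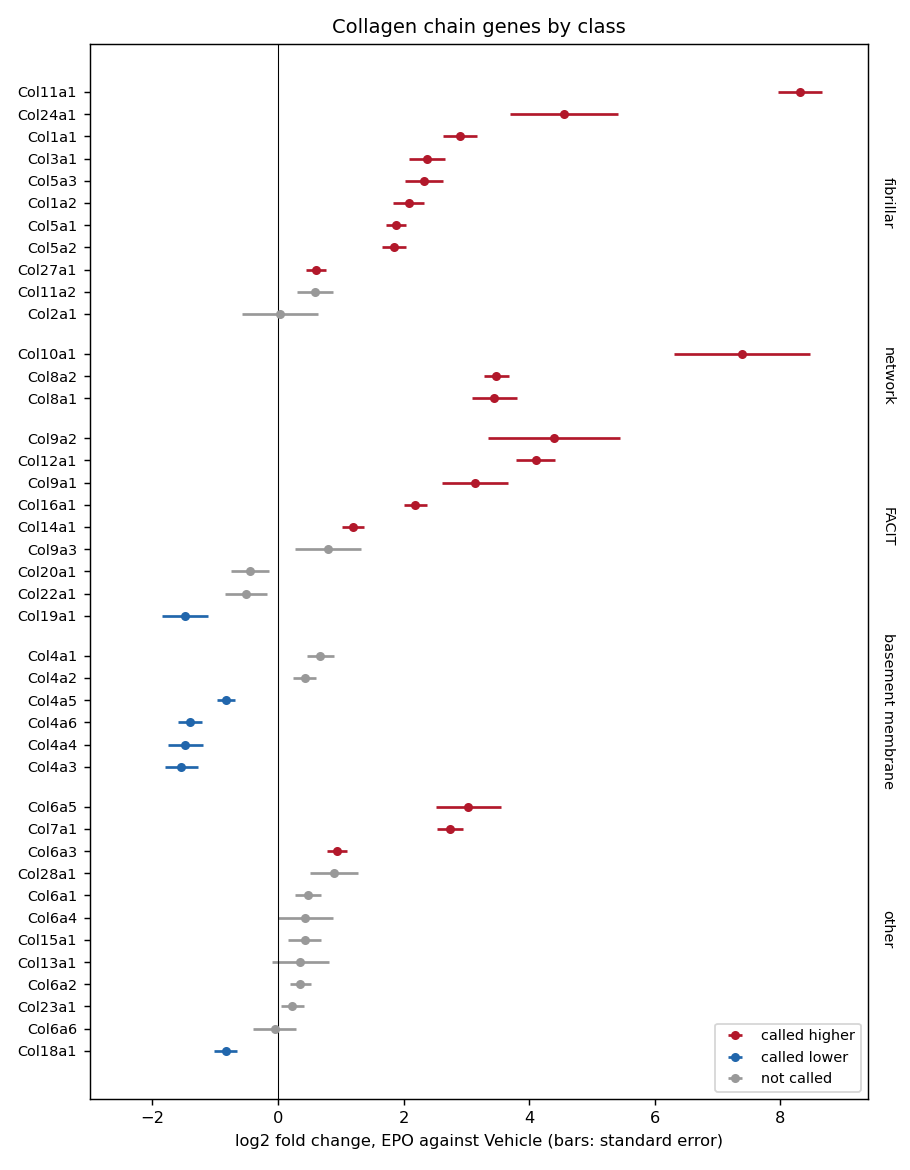
Fitted log2 fold change of the 41 tested collagen genes (x axis; points, with bars of 1 standard error), grouped by class on the y axis and coloured by call. Of 11 fibrillar genes 9 are called higher, 4 of 6 basement membrane genes are called lower, and Col11a1 (8.32) and Col10a1 (7.39) lie farthest to the right.

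**Figure D2:**
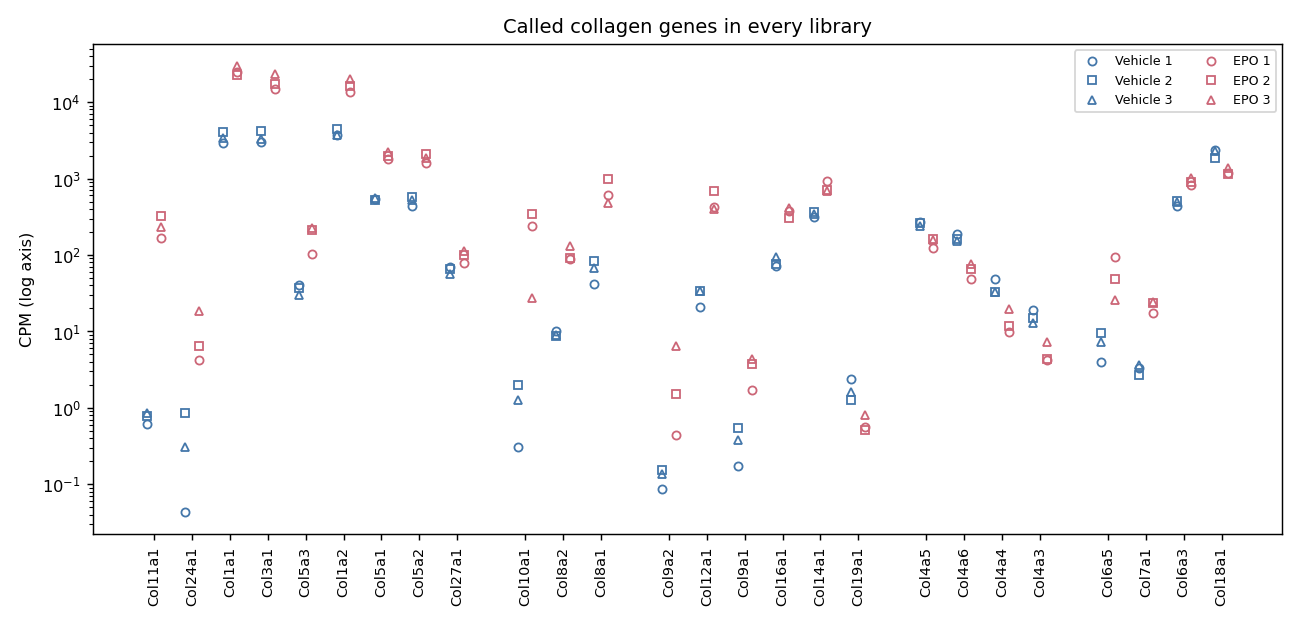
CPM on a log axis for the 26 called collagen genes (x axis, grouped by class) in each of the 3 Vehicle and 3 EPO libraries, 1 point per library. The groups are apart for every gene shown, while EPO libraries differ widely among themselves for Col10a1, from 27.0 to 341 CPM, and for Col9a2 and Col24a1.

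Most fibrillar collagen genes rose. Of 11 genes, all of them tested, 9 were higher and 0 lower (12.9% and 10.1% of all genes tested were called). The median log2 fold change was 2.08. Col1a1, which encodes the main chain of type I collagen (ENSMUSG00000001506, chromosome 11, 94936224 to 94953042), was measured at 2899, 4006 and 3428 CPM (Vehicle 1 to 3) against 25090, 22753 and 29393 CPM (EPO 1 to 3). Every EPO library lay far above every Vehicle library, and the fitted rise was 7.47-fold (log2 change 2.90 ± 0.27 SE, edgeR adjusted p = 0.00167). Its partner Col1a2 (ENSMUSG00000029661, chromosome 6, 4504814 to 4541544) stood at 3685, 4384 and 3689.7 CPM (Vehicle 1 to 3) against 13524, 16247 and 19927 CPM (EPO 1 to 3), a fitted rise of 4.23-fold (log2 change 2.08 ± 0.25 SE, edgeR adjusted p = 0.00289). Col3a1, the only chain of type III collagen, which is plentiful in distensible vessels (ENSMUSG00000026043, chromosome 1, 45311538 to 45349706), stood at 3031, 4238 and 3324 CPM (Vehicle 1 to 3) against 14892, 17012 and 23015 CPM (EPO 1 to 3) and rose 5.18-fold (log2 change 2.37 ± 0.28 SE, edgeR adjusted p = 0.00277). For Col3a1 and Col1a2 the EPO libraries ran in the same order, EPO 3 highest and EPO 1 lowest.

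All 3 type V chains, which sit inside type I fibrils and set their diameter, rose. Col5a1 (chromosome 2, 27886425 to 28039514) was at 546, 525 and 559.7 CPM (Vehicle 1 to 3) against 1792, 1997 and 2214 CPM (EPO 1 to 3), and Col5a2 (chromosome 1, 45374321 to 45503282) at 433, 571 and 531 CPM (Vehicle 1 to 3) against 1574, 2067 and 1881 CPM (EPO 1 to 3). Their log2 fold changes were nearly equal, 1.88 (edgeR adjusted p = 0.0014) for Col5a1 and 1.85 (edgeR adjusted p = 0.00227) for Col5a2. The minor chain Col5a3 (chromosome 9, 20770050 to 20815067) had 39.9, 37.1 and 29.5 CPM (Vehicle 1 to 3) against 103, 209.6 and 222 CPM (EPO 1 to 3) and rose 5.02-fold (log2 change 2.33 ± 0.30 SE, edgeR adjusted p = 0.00322). EPO 1 was the lowest EPO library for all 3 type V genes. Col5a1 overlaps exons of other genes on the opposite strand over 212 bases, and since the strand setting of the counting is unknown a part of its counts could belong to those.

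The largest rise of the family was that of Col11a1, a chain of type XI collagen, which builds the core of cartilage fibrils and can pair with type V chains elsewhere (ENSMUSG00000027966, chromosome 3, 114030540 to 114220718). It had 14, 20 and 25 reads counted in the Vehicle libraries, against 5900, 9662 and 7834 in EPO 1, 2 and 3. In CPM these were 0.608, 0.778 and 0.863 CPM (Vehicle 1 to 3) against 165, 328 and 236 CPM (EPO 1 to 3), with no overlap (log2 change 8.32 ± 0.35 SE, edgeR adjusted p = 0.000416). Col2a1 and Col11a2, the other chains of the type II and type XI fibrils of cartilage, did not pass the test. Col2a1, the main chain of cartilage collagen, was at 7.69, 14.7 and 6.004 CPM (Vehicle 1 to 3) against 4.60, 5.06 and 19.4 CPM (EPO 1 to 3) (log2 change 0.03 ± 0.60 SE, edgeR adjusted p = 0.975), with groups that overlapped and EPO 3 highest. Col11a2 was at 9.26, 6.96 and 7.07 CPM (Vehicle 1 to 3) against 9.43, 8.83 and 16.9 CPM (EPO 1 to 3), a log2 fold change of 0.59 (edgeR adjusted p = 0.171).

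The remaining fibrillar genes are minor chains. Col24a1 (chromosome 3, 145292472 to 145552011) had 1, 22 and 9 reads counted in Vehicle 1 to 3, against 152, 190 and 613 in EPO (log2 change 4.56 ± 0.86 SE, edgeR adjusted p = 0.0107). EPO 3 held most of its EPO counts, and the ratio between the highest and lowest EPO library in CPM, 18.4 against 4.24, was wide. The log2 change was 3.70 without EPO 3 and 5.65 without Vehicle 2, and passed in both. Col27a1 (chromosome 4, 63214004 to 63334991), whose protein forms thin fibrils in cartilage and elsewhere, was at 68.7, 65.0 and 55.7 CPM (Vehicle 1 to 3) against 78.3, 98.6 and 112 CPM (EPO 1 to 3). Its rise of 1.52-fold was the smallest among called members (edgeR adjusted p = 0.0331), and it missed the threshold when any 1 library other than EPO 1 was left out (adjusted p from 0.0809 to 0.108).

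All 3 network-forming genes were called higher, against 12.9% of all genes tested. Type VIII collagen is a short-chain collagen made by endothelial cells and by smooth muscle cells of injured vessels. Col8a1 (ENSMUSG00000068196, chromosome 16, 57624258 to 57754737) was at 41.6, 82.5 and 66.8 CPM (Vehicle 1 to 3) against 609.6, 988 and 483 CPM (EPO 1 to 3), 10.9-fold higher (log2 change 3.45 ± 0.36 SE, edgeR adjusted p = 0.00227). Col8a2 (ENSMUSG00000056174, chromosome 4, 126286793 to 126314330) was at 10.2, 8.79 and 8.97 CPM (Vehicle 1 to 3) against 88.7, 91.7 and 132 CPM (EPO 1 to 3), 11.2-fold higher (log2 change 3.48 ± 0.19 SE, edgeR adjusted p = 0.000433). The fitted folds were close, but EPO 3 was the lowest EPO library for Col8a1 and the highest for Col8a2.

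Col10a1, known as a marker of hypertrophic cartilage (ENSMUSG00000039462, chromosome 10, 34389981 to 34397085), had 7, 51 and 37 reads counted in Vehicle 1 to 3, against 8644, 10052 and 899 in EPO. That is 0.304, 1.98 and 1.28 CPM (Vehicle 1 to 3) against 241, 341 and 27.0 CPM (EPO 1 to 3) (log2 change 7.39 ± 1.09 SE, edgeR adjusted p = 0.00466). Every EPO library was above every Vehicle library, but EPO 3 lay far below EPO 1 and EPO 2. The log2 fold change was 6.80 without EPO 2, and 4.49 without EPO 1 and EPO 2. Skeletal muscle markers were also lowest in EPO 3 among the EPO libraries, at 391 CPM in sum, and their part was not tested.

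Among the 9 FACIT genes 5 were higher and 1 lower, with a median log2 fold change of 1.19. Of all genes tested, 12.9% were called higher and 10.1% lower, and the lower count lies near its share. Col12a1 and Col14a1 encode collagens that bind the surface of type I fibrils in tendon, skin and vessel adventitia. Col12a1 (ENSMUSG00000032332, chromosome 9, 79598991 to 79718831) was at 20.9, 33.4 and 34.1 CPM (Vehicle 1 to 3) against 426, 696 and 402 CPM (EPO 1 to 3) and rose 17.2-fold (log2 change 4.11 ± 0.31 SE, edgeR adjusted p = 0.00105). Col14a1 (ENSMUSG00000022371, chromosome 15, 55307750 to 55520803) was at 311, 365 and 346 CPM (Vehicle 1 to 3) against 929, 710.2 and 695 CPM (EPO 1 to 3) and rose 2.28-fold (log2 change 1.19 ± 0.17 SE, edgeR adjusted p = 0.00434). Per length Col14a1 was the more abundant of the pair in both groups, at 48.6 ± 3.88 CPM per kb in Vehicle and 111 ± 18.7 CPM per kb in EPO, against 1.93 ± 0.487 CPM per kb in Vehicle and 33.4 ± 10.7 CPM per kb in EPO for Col12a1. Col16a1, found in fibroblast and smooth muscle matrix (chromosome 4, 130047840 to 130099283), was at 72.0, 75.1 and 94.8 CPM (Vehicle 1 to 3) against 381, 302 and 417 CPM (EPO 1 to 3) and rose 4.55-fold (log2 change 2.19 ± 0.18 SE, edgeR adjusted p = 0.00118).

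The type IX chains, FACIT partners of type II collagen in cartilage, were low throughout. Col9a1 (chromosome 1, 24177610 to 24252684) had 4, 14 and 11 reads counted in Vehicle 1 to 3, against 62, 110 and 147 in EPO (log2 change 3.14 ± 0.52 SE, edgeR adjusted p = 0.00692). Col9a2 (chromosome 4, 121039385 to 121055322) had 2, 4 and 4 reads counted in Vehicle 1 to 3, against 16, 45 and 213 in EPO (log2 change 4.40 ± 1.05 SE, edgeR adjusted p = 0.0237). The call for Col9a2 rested on few Vehicle reads and was lost without Vehicle 1, 2 or 3 (adjusted p = 0.0915, 0.0784 and 0.068) and in limma-voom (0.0999). Without EPO 3 its log2 change was 2.89. Col9a3 was at 1.26, 1.28 and 1.31 CPM (Vehicle 1 to 3) against 0.809, 2.07 and 3.85 CPM (EPO 1 to 3), a log2 fold change of 0.80 (edgeR adjusted p = 0.311), and overlaps Tcfl5 on the opposite strand over 234 bases. Without EPO 1, where it was lowest, Col9a3 passed (edgeR adjusted p = 0.0457). In all 3 type IX genes EPO 3 was highest and EPO 1 lowest.

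Of the remaining FACIT genes, Col19a1 fell and Col20a1 and Col22a1 did not pass. Col19a1 (chromosome 1, 24261890 to 24587472), a minor chain known from muscle and nerve, had 55, 33 and 47 reads counted in Vehicle 1 to 3, against 20, 15 and 27 in EPO (log2 change -1.48 ± 0.37 SE, edgeR adjusted p = 0.0272). It lost its call without Vehicle 1, Vehicle 3, EPO 1 or EPO 2 (adjusted p from 0.0512 to 0.104). Col20a1, at 8.78, 5.29 and 5.56 CPM (Vehicle 1 to 3) against 4.46, 6.45 and 3.49 CPM (EPO 1 to 3), had a log2 fold change of -0.45 (edgeR adjusted p = 0.335). Col22a1, a collagen of the junction between muscle and tendon, had 20 to 36 counts in each library and a log2 fold change of -0.51 (edgeR adjusted p = 0.313).

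Type IV collagen split by chain. Col4a1 and Col4a2, the pair that makes the basement membrane of nearly all vessels, were above Vehicle in every EPO library without passing the test, while all 4 minor chains, Col4a3, Col4a4, Col4a5 and Col4a6, fell. Col4a1 (ENSMUSG00000031502, chromosome 8, 11198423 to 11312826) was at 1331, 1180.1 and 1210.2 CPM (Vehicle 1 to 3) against 1981, 2432 and 1537 CPM (EPO 1 to 3) (log2 change 0.68 ± 0.21 SE, edgeR adjusted p = 0.0535). DESeq2 called it (adjusted p = 0.00514), as did edgeR with no filter on low counts (0.0461) or without EPO 3 (0.037). Col4a2 (ENSMUSG00000031503, chromosome 8, 11312805 to 11449287) was at 1167, 1155 and 1199.9 CPM (Vehicle 1 to 3) against 1608, 1844 and 1287 CPM (EPO 1 to 3) (log2 change 0.43 ± 0.18 SE, edgeR adjusted p = 0.133). In both, EPO 2 was highest and EPO 3 lowest among the EPO libraries.

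Col4a5 and Col4a6, whose proteins form a trimer found in basement membranes of smooth muscle, fell in every EPO library. Col4a5 (ENSMUSG00000031274, chromosome X, 141475385 to 141689234) was at 274, 265 and 239 CPM (Vehicle 1 to 3) against 124, 160.3 and 155 CPM (EPO 1 to 3), 1.77-fold lower (log2 change -0.82 ± 0.15 SE, edgeR adjusted p = 0.00856). Col4a6 (ENSMUSG00000031273, chromosome X, 141165403 to 141474076) was at 189, 162 and 151 CPM (Vehicle 1 to 3) against 48.1, 64.8 and 77.0 CPM (EPO 1 to 3), 2.65-fold lower (log2 change -1.40 ± 0.19 SE, edgeR adjusted p = 0.00382). Col4a3 and Col4a4, which with Col4a5 make the trimer of kidney and lung basement membranes, ranked lower per length, at 25 and 20 of the 44 genes in Vehicle against 14 and 15 for Col4a5 and Col4a6. Col4a3 (chromosome 1, 82586921 to 82722059) was at 18.9, 14.8 and 12.9 CPM (Vehicle 1 to 3) against 4.27, 4.41 and 7.27 CPM (EPO 1 to 3) (log2 change -1.54 ± 0.26 SE, edgeR adjusted p = 0.00768), and its exons overlap an opposite-strand gene over 563 bases. Col4a4 (chromosome 1, 82448423 to 82586849) was at 49.1, 33.0 and 33.0 CPM (Vehicle 1 to 3) against 9.98, 11.9 and 19.5 CPM (EPO 1 to 3) (log2 change -1.48 ± 0.28 SE, edgeR adjusted p = 0.011). EPO 1 was the lowest library for all 4 of these genes. Without EPO 1 and EPO 2, Col4a6 alone of the 6 members called lower kept its call (adjusted p = 0.0293), and Col4a5, Col4a3 and Col4a4 had adjusted p of 0.0515, 0.0743 and 0.101 with log2 fold changes of -0.74, -1.09 and -0.97. Per length Col4a1 and Col4a2 stood at places 7 and 6 in Vehicle and 5 and 6 in EPO, while Col4a5, Col4a6, Col4a4 and Col4a3 went from 14, 15, 20 and 25 to 20, 22, 29 and 37. In the same libraries 8 of 10 smooth muscle markers were called lower, against 10.1% of all genes tested. The 10 markers summed to 21266 to 30018 CPM over the Vehicle libraries and 7789.6 to 10351 CPM over the EPO libraries. Their part in the type IV values was not tested.

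**Figure D3:**
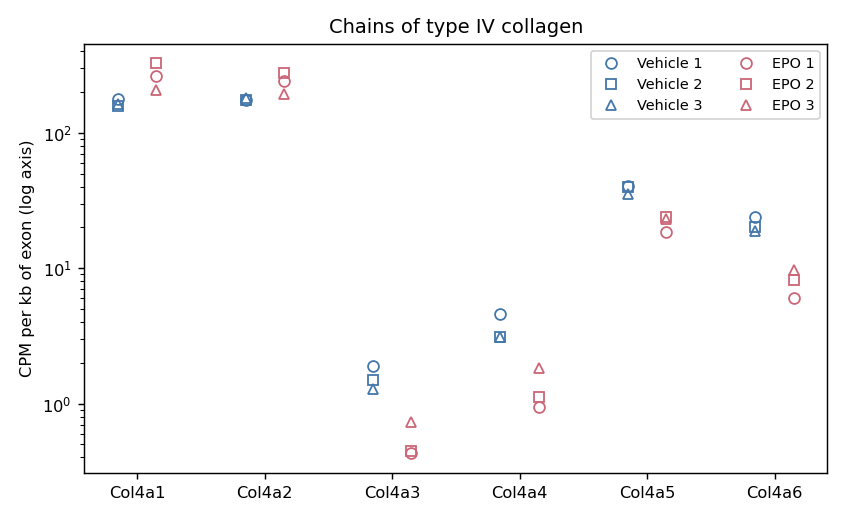
Level per length (CPM per kb of merged exons, log axis) of the 6 type IV collagen genes, 1 point per library. EPO libraries lie above Vehicle for Col4a1 and Col4a2 and below Vehicle for the other 4 genes, with no overlap of the groups in any of the 6.

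Among the other collagens, 3 of 12 tested genes were higher and 1 lower, with a median log2 fold change of 0.43. Of all genes tested, 12.9% were called higher and 10.1% lower, and the lower count lies near its share. Type VI collagen, the beaded microfibril around cells and fibrils, is built from Col6a1, Col6a2 and a variable chain. Col6a1 was at 895, 838 and 829 CPM (Vehicle 1 to 3) against 883, 1228 and 1447 CPM (EPO 1 to 3) (log2 change 0.47 ± 0.21 SE, edgeR adjusted p = 0.14), where EPO 1 lay within the Vehicle range. Col6a2 was at 909, 808 and 824 CPM (Vehicle 1 to 3) against 936, 1070.5 and 1241 CPM (EPO 1 to 3) (log2 change 0.35 ± 0.17 SE, edgeR adjusted p = 0.168). Col6a3 (ENSMUSG00000048126, chromosome 1, 90765923 to 90843971), the usual variable chain, passed, with 438, 504 and 492 CPM (Vehicle 1 to 3) against 819.5, 913 and 1023 CPM (EPO 1 to 3) (log2 change 0.94 ± 0.16 SE, edgeR adjusted p = 0.00675). Without EPO 1, Col6a1 passed as well (edgeR adjusted p = 0.0185).

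Col6a5 (chromosome 9, 105856078 to 105960643), an alternative to it, rose 8.18-fold from a low level, with 3.95, 9.49 and 7.18 CPM (Vehicle 1 to 3) against 94.5, 49.0 and 25.7 CPM (EPO 1 to 3) (log2 change 3.03 ± 0.52 SE, edgeR adjusted p = 0.00753). Its EPO values were highest in EPO 1, unlike those of Col6a1, Col6a2 and Col6a3, which were highest in EPO 3. Its log2 change was 2.42 without EPO 1, and without EPO 1 and EPO 2 it was 1.90 and missed the threshold (edgeR adjusted p = 0.0561). Its neighbour Col6a6, 27917 bases away on the same strand, did not follow, at 26.2, 26.6 and 17.3 CPM (Vehicle 1 to 3) against 30.8, 25.1 and 11.6 CPM (EPO 1 to 3) (log2 change -0.05 ± 0.35 SE, edgeR adjusted p = 0.93). Col6a4, the remaining member of that cluster, had 14 to 65 counts per library and a log2 fold change of 0.44 (edgeR adjusted p = 0.514).

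Col7a1, the anchoring fibril collagen that ties epithelial basement membranes to the tissue below (ENSMUSG00000025650, chromosome 9, 108953586 to 108984875), had 77, 70 and 107 reads counted in Vehicle 1 to 3, against 622, 693 and 809 in EPO. At 3.35, 2.72 and 3.69 CPM (Vehicle 1 to 3) against 17.3, 23.5 and 24.3 CPM (EPO 1 to 3) it was 6.67-fold higher (log2 change 2.74 ± 0.21 SE, edgeR adjusted p = 0.00105). The 8 keratinocyte markers summed to 6.26 to 7.996 CPM over the Vehicle libraries and 6.76 to 12.0 CPM over the EPO libraries. Krt5 and Krt14, which define basal keratinocytes, were at 0.118 CPM or less on average in each group. Trp63, a transcription factor of basal epithelium, was at 0.217, 0.778 and 0.518 CPM (Vehicle 1 to 3) against 1.39, 2.65 and 0.782 CPM (EPO 1 to 3), without overlap (edgeR adjusted p = 0.0832), and Krt10 and Sbsn were detected in every library, at 3.74 ± 0.937 CPM on average in Vehicle (SD, n = 3) and 3.62 ± 0.330 CPM in EPO for Krt10 and 2.07 ± 0.363 CPM on average in Vehicle (SD, n = 3) and 2.11 ± 0.0896 CPM in EPO for Sbsn. Lor was at 0.348, 0.311 and 0.552 CPM (Vehicle 1 to 3) against 4.46, 0.441 and 0.421 CPM (EPO 1 to 3), highest in EPO 1 (edgeR adjusted p = 0.156). Their part in the Col7a1 value was not tested.

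Col18a1 and Col15a1 are multiplexins, basement membrane collagens that carry heparan or chondroitin sulphate and release the fragments endostatin and restin. Col18a1 (ENSMUSG00000001435, chromosome 10, 77052178 to 77166548) was at 2382, 1876 and 2316 CPM (Vehicle 1 to 3) against 1186, 1135 and 1369 CPM (EPO 1 to 3) and fell 1.78-fold (log2 change -0.83 ± 0.18 SE, edgeR adjusted p = 0.0173). The groups did not overlap, but its call was lost without Vehicle 1, Vehicle 3 or EPO 2 (adjusted p = 0.0695, 0.0559 and 0.0601) and without EPO 1 and EPO 2 together (0.128). Col15a1 was at 673, 483 and 373 CPM (Vehicle 1 to 3) against 519.9, 829 and 704 CPM (EPO 1 to 3), and its groups overlapped (log2 change 0.43 ± 0.26 SE, edgeR adjusted p = 0.282). Vehicle 1 was the library with the highest Vehicle value for both.

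The transmembrane collagens Col13a1 and Col23a1 and the atypical Col28a1 missed the threshold, at log2 changes of 0.36, 0.23 and 0.89 (edgeR adjusted p = 0.601, 0.403 and 0.13). Col28a1 had an unadjusted p of 0.0477, and leaving out Vehicle 3 brought its adjusted p to 0.0456. Col17a1, the hemidesmosome collagen, had 4 to 20 counts per library, Col25a1 had 0 to 8 and Col26a1 had 0 to 31.

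The weight of collagen in the libraries changed with these genes. All 44 genes together took 2.06% ± 0.118 in Vehicle and 7.63% ± 1.33 in EPO of all counts (SD, n = 3 each). Single libraries held 1.93%, 2.17% and 2.07% in Vehicle 1, 2 and 3 and 6.35%, 7.54% and 9.01% in EPO 1, 2 and 3. The groups did not overlap, and the exact permutation test (two-sided) gave p = 0.1, the smallest possible with 3 against 3 libraries. Fibrillar genes made up most of the gain, with 1.22% ± 0.159 in Vehicle and 6.47% ± 1.29 in EPO. FACIT genes took 0.0466% ± 0.00473 in Vehicle and 0.165% ± 0.0100 in EPO, network genes 0.00748% ± 0.00211 in Vehicle and 0.0995% ± 0.0412 in EPO and basement membrane genes 0.292% ± 0.0105 in Vehicle and 0.376% ± 0.0765 in EPO. Each of these 4 classes had an exact p of 0.1. The class of other collagens took 0.497% ± 0.0383 in Vehicle and 0.521% ± 0.0917 in EPO, with overlapping groups (exact permutation p = 0.7).

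A share of counts favours long genes, so the make-up of the collagen level was also computed per length, as CPM per kb of merged exons. On that scale fibrillar genes made up 52.0% ± 4.72 in Vehicle and 81.6% ± 2.96 in EPO of the summed collagen level (exact permutation p = 0.1). Basement membrane genes made up 16.1% ± 1.25 in Vehicle and 5.88% ± 1.57 in EPO, and other collagens 29.0% ± 3.60 in Vehicle and 8.33% ± 0.569 in EPO. Network genes remained a small part, 0.413% ± 0.0910 in Vehicle and 1.96% ± 0.968 in EPO, and FACIT genes were at 2.53% ± 0.161 in Vehicle and 2.20% ± 0.388 in EPO (exact permutation p = 0.3). Type VI chains Col6a1, Col6a2 and Col6a3 went from 13.2% to 5.11% on average although none of them was called lower. With the longest transcript of each gene in place of merged exons the fibrillar share was 59.0% in Vehicle and 84.7% in EPO.

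**Figure D4:**
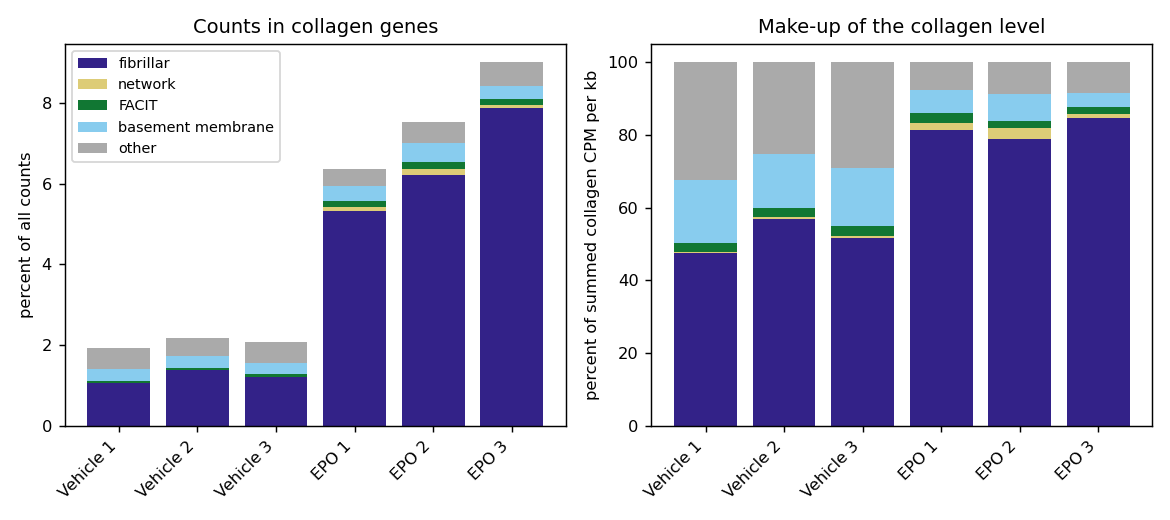
Left, the percent of all counts in collagen genes per library, stacked by class; right, the same classes as percent of the summed collagen level per length. The left bars stand near 2% in Vehicle and between 6.35% and 9.01% in EPO, and the fibrillar part of the right bars grows from between 47.5% and 56.9% to between 78.9% and 84.8%.

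Per length of merged exons, Col1a1 was first, at 525 ± 84.3 CPM per kb in Vehicle and 3923 ± 513 CPM per kb in EPO, followed in both groups by Col3a1 (359.7 ± 64.2 CPM per kb in Vehicle and 1865 ± 429 CPM per kb in EPO) and Col1a2 (315 ± 32.4 CPM per kb in Vehicle and 1333 ± 259 CPM per kb in EPO). In Vehicle, Col3a1, Col1a2 and Col18a1 (312 ± 39.2 CPM per kb) did not differ beyond their spread on this length. By longest transcript Col18a1 stood lower in Vehicle, at 392 CPM per kb against 635 for Col3a1 and 733 for Col1a2. Col18a1 moved from place 4 in Vehicle to 9 in EPO. Col8a1 moved from place 17 to 13, Col12a1 from 24 to 17, Col10a1 from 31 to 15 and Col11a1 from 39 to 21 of 44. Col4a6 moved down from 15 to 22. The merged exons of Col1a2 measure 12426 bases and its longest transcript 5348, so the order at the top depends on which length is used. By longest transcript the Vehicle order was Col1a2 (733 CPM per kb), Col3a1 (635) and Col1a1 (581), and the EPO order was Col1a1 (4342 CPM per kb), Col3a1 (3290.1) and Col1a2 (3098).

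Ratios between chains within a library do not depend on how libraries are scaled. A set of 10 pairs, chosen with earlier results of these data known, were compared, and 7 did not overlap between groups. An exact permutation p of 0.1 (two-sided) is the smallest possible, and 0.143 after adjustment over the pairs, so none could pass 0.05. Col1a2 to Col1a1, the partners in type I collagen, was 0.606 ± 0.0568 in Vehicle and 0.340 ± 0.0488 in EPO (log2 difference -0.84). By longest transcript the same ratio was 1.27 in Vehicle and 0.714 in EPO. A change of length shifts every library alike, so the log2 difference between groups cannot change with it. Col3a1 to Col1a1 was 0.685 ± 0.0319 in Vehicle and 0.473 ± 0.0674 in EPO (log2 difference -0.54), and Col5a1 to Col1a1 was 0.124 ± 0.0222 in Vehicle and 0.0604 ± 0.00659 in EPO (log2 difference -1.03). In each of these Col1a1 gained on its fibril partner in every EPO library.

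For Col5a2 and Col5a1 no shift was detected (no pair with Col5a3 was run). Their ratio was 0.836 ± 0.131 in Vehicle and 0.815 ± 0.0884 in EPO, with overlapping groups (exact permutation p = 0.9). Col11a1 to Col5a1 went from 0.000919 to 0.0805, a log2 difference of 6.42. Col4a2 to Col4a1 was 1.07 ± 0.0708 in Vehicle and 0.905 ± 0.0457 in EPO (log2 difference -0.24), a small shift in which every EPO library was below every Vehicle library. Col4a5 to Col4a1 was 0.233 ± 0.0156 in Vehicle and 0.0850 ± 0.0237 in EPO (log2 difference -1.49). Col6a3 to Col6a1 was 0.206 ± 0.0227 in Vehicle and 0.290 ± 0.0434 in EPO (log2 difference 0.49), while Col6a2 to Col6a1 overlapped, at 0.521 ± 0.0137 in Vehicle and 0.489 ± 0.0594 in EPO (exact permutation p = 0.4). Col8a2 to Col8a1 varied more between libraries than between groups, from 0.186 to 0.428 in Vehicle and from 0.162 to 0.476 in EPO (exact permutation p = 1).

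**Figure D5:**
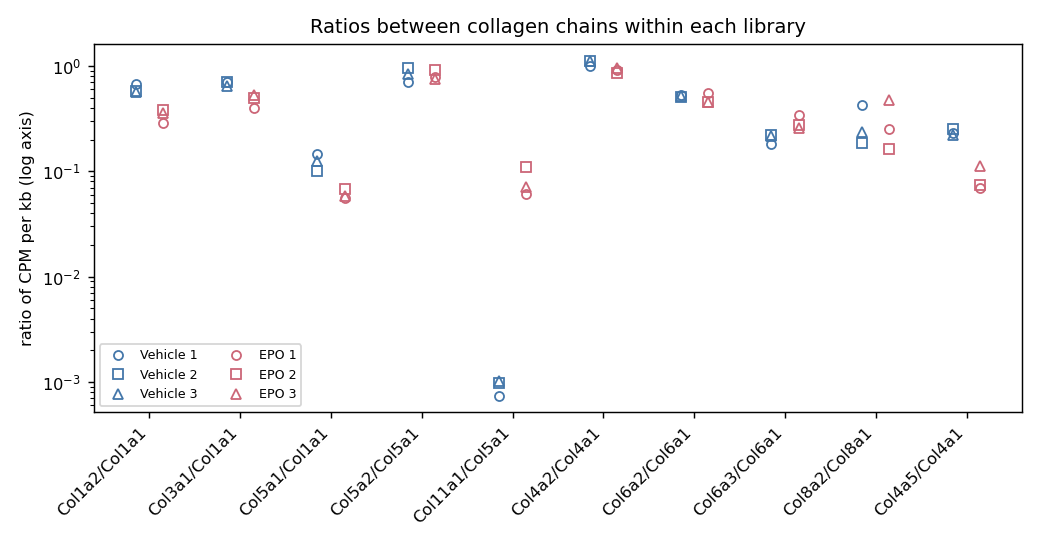
Ratio of length-scaled levels (log axis) for 10 pairs of collagen chains, 1 point per library. Col1a2/Col1a1, Col3a1/Col1a1, Col5a1/Col1a1 and Col4a5/Col4a1 lie lower in every EPO library, Col11a1/Col5a1 lies higher, and Col5a2/Col5a1, Col6a2/Col6a1 and Col8a2/Col8a1 overlap.

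Genes that process collagen chains mostly rose with them. Of 32 genes for hydroxylation, folding, secretion, propeptide removal and crosslinking, 31 were tested, 22 were higher and 2 lower, with a median log2 fold change of 0.78 (12.9% and 10.1% of all genes tested were called). P4ha3, a catalytic subunit of prolyl 4-hydroxylase, was at 1.74, 5.29 and 4.07 CPM (Vehicle 1 to 3) against 55.5, 67.8 and 63.9 CPM (EPO 1 to 3) (log2 change 4.07 ± 0.36 SE, edgeR adjusted p = 0.00147). Serpinh1, the collagen chaperone of the endoplasmic reticulum, was at 837, 706 and 802 CPM (Vehicle 1 to 3) against 1901, 2051 and 2077 CPM (EPO 1 to 3) (log2 change 1.36 ± 0.16 SE, edgeR adjusted p = 0.00277). Lox, which crosslinks collagen and elastin, was at 224, 210.1 and 209.6 CPM (Vehicle 1 to 3) against 587, 1010.3 and 841 CPM (EPO 1 to 3) (log2 change 1.92 ± 0.22 SE, edgeR adjusted p = 0.00262). Bmp1 and Tll1, proteinases that trim procollagen, and the prolyl 3-hydroxylase P3h1 had log2 fold changes of 1.44, 2.59 and 1.12 (edgeR adjusted p = 0.00175, 0.0027 and 0.00201). The genes that fell, picked with their values known, were P3h2 (-1.04), a prolyl 3-hydroxylase acting on type IV collagen, and the procollagen enhancer Pcolce2 (-1.32).

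Of 12 collagen receptors and uptake genes 11 were tested, 5 were higher and 2 lower (12.9% and 10.1% of all genes tested were called). Mrc2, an endocytic collagen receptor, was at 164, 179.5 and 159 CPM (Vehicle 1 to 3) against 561, 498 and 534 CPM (EPO 1 to 3) (log2 change 1.66 ± 0.13 SE, edgeR adjusted p = 0.00105), and Itga11, the integrin chain that binds fibrillar collagen on fibroblasts, was at 14.6, 21.7 and 15.9 CPM (Vehicle 1 to 3) against 152, 189.7 and 109 CPM (EPO 1 to 3) (log2 change 3.11 ± 0.25 SE, edgeR adjusted p = 0.00108). The discoidin receptors, which collagen activates, fell, with log2 fold changes of -0.76 (edgeR adjusted p = 0.0123) for Ddr2 and -0.58 (edgeR adjusted p = 0.033) for Ddr1. Itga1, a collagen-binding integrin chain of smooth muscle, was at 40.3 ± 1.06 CPM on average in Vehicle (SD, n = 3) and 40.3 ± 7.48 CPM in EPO (edgeR adjusted p = 0.993).

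Markers of the tissues in which these collagens are best known were read beside them. The counts are to be read against all genes tested, of which 12.9% were called higher and 10.1% lower. Of 10 fibroblast markers 1 was higher and 3 lower, and the higher count lies near its share. Lum, a proteoglycan that binds fibrils, had a log2 fold change of 1.03, and Clec3b, Gsn and Scara5 had -0.92, -1.02 and -0.60. Pdgfra, the defining receptor of fibroblasts, was at 100.3 ± 15.8 CPM on average in Vehicle (SD, n = 3) and 133 ± 6.58 CPM in EPO (edgeR adjusted p = 0.0812). Of 10 cartilage markers 6 were tested, 4 were higher and 1 lower. Acan, the cartilage proteoglycan aggrecan, was at 27.3, 37.8 and 39.2 CPM (Vehicle 1 to 3) against 162, 181 and 149 CPM (EPO 1 to 3) (log2 change 2.24 ± 0.17 SE, edgeR adjusted p = 0.00105), and Matn3 at 1.04, 0.972 and 0.656 CPM (Vehicle 1 to 3) against 5.10, 7.47 and 10.8 CPM (EPO 1 to 3). Sox9, the transcription factor of chondrocytes, was at 6.04, 7.27 and 7.14 CPM (Vehicle 1 to 3) against 7.86, 17.99 and 22.1 CPM (EPO 1 to 3), while Hapln1, which links aggrecan to hyaluronan, fell (-1.81). Cnmd, Matn1, Snorc and Ucma, which are largely restricted to cartilage, were at 0.621 CPM or less in every library. The cartilage markers summed to 109 to 214 CPM over the Vehicle libraries and 487 to 796 CPM over the EPO libraries. Most of each sum came from Acan and Comp, the latter at 66.1, 109 and 154 CPM (Vehicle 1 to 3) against 616, 373 and 299 CPM (EPO 1 to 3).

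Of 8 bone markers 6 were tested, 1 was higher (Runx2, 2.07) and 3 were lower (Phex, Alpl and Sost), against 12.9% and 10.1% of all genes tested. The higher count lies near its share. The osteoblast genes Bglap and Sp7 averaged 0.322 CPM or less in each group. Among 6 tendon markers 3 were higher: Tnmd at 0.608, 0.467 and 0.690 CPM (Vehicle 1 to 3) against 5.94, 14.8 and 5.47 CPM (EPO 1 to 3), Thbs4 at 1.83, 2.41 and 2.07 CPM (Vehicle 1 to 3) against 87.1, 137 and 7.85 CPM (EPO 1 to 3) and Mkx at 1.74, 2.22 and 1.59 CPM (Vehicle 1 to 3) against 5.58, 7.81 and 4.78 CPM (EPO 1 to 3). All 10 skeletal muscle markers were higher. EPO 2 was the highest library for Tnmd, Mkx and Thbs4, EPO 1 the highest EPO library for Scx and Fmod, and EPO 3 for Egr1. The 6 tendon markers summed to 358 to 479.7 CPM over the Vehicle libraries and 481 to 649 CPM over the EPO libraries. Across all genes tested 12.9% were higher and 10.1% lower, and all counts in this paragraph are to be read against those shares. Of 10 macrophage markers 2 were higher, of 10 endothelial markers 3 were higher and 1 lower, of 10 white adipocyte markers 7 were lower, and of 8 Schwann cell markers 1 was lower. The macrophage count, the endothelial gene that was lower and the Schwann cell count lie near those shares. Of 8 keratinocyte markers 4 were tested, and the smallest edgeR adjusted p among them was 0.0832. The part of these tissues in the collagen values was not tested.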

How the data were processed

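RNA was measured in 6 aorta libraries, 3 per group. The submitters' processing notes name CASAVA 1.8, TopHat2 2.0.6 and the build mm10; how reads were assigned to genes, and with what strand setting, is not given in the sources used here. What the authors deposited is raw counts per gene; columns named Con were read as Vehicle. Symbols, coordinates and exon lengths came from GENCODE M21 (GRCm38), which matched 47224 of 47643 IDs. Exons of 10 collagen genes overlap an opposite-strand exon, by 14 to 563 bases, 4 of them by over 200.

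The test was edgeR 4.0.16 (R 4.3.3): filterByExpr, TMM, quasi-likelihood, two-sided, group as the only term, over 16522 genes; 31121 others were filtered out. The standard error of a log2 fold change is its size over the square root of its F. CPM use counts over tested genes. On simulated data of 16312 genes, 59 of 100 true 2-fold changes and 95 of 100 true 4-fold changes were recovered, and 5 of 159 calls were false. The changed genes were few and left out the lowest levels. Simulated counts followed the fitted dispersion trend, without variation of dispersion from gene to gene and without tissue differences between libraries. These rates need not hold for the real libraries or for low members. The CPM limits for a gene without counts in a library cover counting error only. Standard errors and SD values include the spread between libraries. Alternatives were DESeq2 1.42.0, limma 3.58.1 (voom), other scalings and filters, a replicate block and left-out libraries. Members, classes, lists and pairs were chosen with earlier results of these data known. Named with values are called members, the more abundant uncalled ones of each class, and up to 3 genes per other list (6 for processing); others were named after their values were seen. Protein sequences were not analysed here.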

Additional observations from a re-analysis of the deposited data

How the results depend on the processing

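Of the 26 called collagen genes, 17 kept their call and all 26 their direction under each of up to 18 alternatives. Higher members numbered 18 to 22 and lower members 4 to 6 with 1 library left out. Over all genes the shares in those fits were 5.49% to 13.3% higher and 4.1% to 11.9% lower. Without EPO 1 and EPO 2 the log2 fold changes of Col18a1 and Col19a1 were -0.68 and -1.11, against -0.83 and -1.48 with all libraries. Over all genes 3804 were called, 1635 to 4281 with 1 library left out (1635 without Vehicle 1, 2029 without Vehicle 2), 1548 without EPO 1 and EPO 2, and 2248 with a fold of at least 2. The share of counts in collagen genes rose by 4.89 to 6.22 percentage points with 1 library left out. Signs changed only among members that were not called: Col13a1 ran from -0.14 to 0.66 as single libraries were dropped, and -0.54 with EPO 1 and EPO 2 both dropped; Col2a1 ran from -0.97 to 0.49 and was -0.23 with the replicate block and -0.18 in limma-voom; Col6a6 ran from -0.36 to 0.26. The log2 ratio difference ran from -0.15 to 0.079 for Col5a2/Col5a1 and from -0.39 to 0.39 for Col8a2/Col8a1. The cause of these changes was not tested. With the replicate number as a block 19 members were higher and 5 lower (9.87% and 7.59% of all genes). Col27a1 and Col19a1 lost their calls there (edgeR adjusted p = 0.0802 and 0.0538). Same-numbered libraries correlated at -0.01, -0.01 and 0.13 in their deviations from the group means, and not every library correlated best with its own number. No label says whether a number marks a pair, and so few libraries cannot decide it. Scaling without the collagen genes left 20 higher and 6 lower members (12.2% and 11% of all genes). Few counts limit Col9a1, Col9a2, Col24a1, Col19a1 and the untested genes.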
